A study of Homo sapiens with 6 samples.

Results

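The genes described here encode interleukin-1 (IL-1) and interleukin-36 (IL-36) ligands, their antagonists and their receptors, with the related cytokines IL18 and IL33. They are IL1A, IL1B, IL36G, IL18, IL33, IL1RN, IL36RN, IL1R1, IL1RAP and IL1R2, 10 of the 56303 genes in the count table. They were selected by name and with their measured difference between the groups already known, so their values are a description and carry no test. RNA was sequenced 48 h after transfection with a control siRNA (siNC) or with an siRNA against the F-box gene FBXL6 (siFBXL6). The labels and the study's paper name the cells as T24, an established human bladder carcinoma line, and their identity was not tested here. Each group held 3 libraries. The labels give the genotype WT to the siNC group and FBXL6 knockdown to the siFBXL6 group, and a single batch to all libraries. The labels number the libraries of each group from 1 to 3, and these numbers were read as replicates. The study's paper also calls its siRNAs against FBXL6 siFBXL6-1 and siFBXL6-2, but it describes only 2 of them and 1 control siRNA, so siFBXL6-3 and the numbered siNC labels match no separate siRNA there. The labels do not say whether the siFBXL6 libraries share 1 siRNA, and if they do not, each SD of that group also spans siRNAs. The libraries labelled siNC held 58646515, 60967902 and 56814946 counts, and those labelled siFBXL6 held 60968158, 60898556 and 60754015.

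FBXL6, the gene targeted by the siRNA, was examined first. Its normalized level was 6.19, 6.70 and 6.93 CPM (counts per 1000000) in the libraries labelled siNC and 6.58, 5.70 and 5.81 CPM in those labelled siFBXL6. The groups overlapped, with a log2 fold change (log2FC, siFBXL6 over siNC throughout) of -0.13 (SE 0.088, adjusted p = 0.247 in edgeR's quasi-likelihood test). SLC52A2, on the opposite strand, overlaps 31.7% of the FBXL6 exon bases, and the strand setting of the counting is not given. The study's paper reports that its siRNAs lowered FBXL6 in T24 cells, by qRT-PCR and Western blot. Because FBXL6 did not set the groups apart in these libraries, every direction below is between libraries named by their labels. ACTB, the β-actin gene, was level between the groups (log2FC 0.00, SE 0.027, adjusted p = 0.996 in edgeR). GAPDH, a glycolytic enzyme gene often used as a reference, was not. It stood at 195, 185 and 185 CPM in the libraries labelled siNC and at 661, 655 and 653 CPM in those labelled siFBXL6 (log2FC 1.80, SE 0.030, adjusted p = 4.9e-31 in edgeR). An antisense gene overlaps 14.2% of its exon bases.

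IL-1α and IL-1β, the products of IL1A and IL1B, bind the receptor IL1R1, which then recruits the accessory chain IL1RAP and signals through MYD88 and IRAK kinases to NF-κB and MAP kinases. IL-36γ, the product of IL36G, uses the same accessory chain with its own receptor, IL1RL2, and is known as an epithelial alarm cytokine. Each arm has a receptor antagonist, IL1RN or IL36RN, and IL1R2 binds IL-1 without signalling. In the bladder, urothelial cells release IL-1 cytokines during infection and injury.

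Of the 10 genes, 9 had enough counts for the comparison, and IL33 did not. In each of these 9 genes every library labelled siFBXL6 lay above every library labelled siNC, an order found in 24.3% of the 21298 genes tested. Across the table, 40.2% of genes tested had an adjusted p under 0.05 in edgeR, 20.5% with a positive and 19.8% with a negative log2FC. Since the genes were selected on this contrast, nothing is read from these shares. The log2FC values of the 9 genes ran from 0.16 for IL18 to 2.32 for IL36G, and 6 of them lay above 0.64, the 95th percentile of all genes tested. In such bulk RNA, a change in the share of cells that express a gene and a change in RNA per cell cannot be told apart.

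The agonist IL1A lies on chromosome 2 of GRCh38 from 112773915 to 112784590. It was at 126, 124 and 125 CPM in the libraries labelled siNC and at 173, 179 and 181 CPM in those labelled siFBXL6. The 3 control libraries were nearly equal and all lay well below the other group. The group means were 125 ± 0.769 and 178 ± 4.48 CPM (SD, n = 3 each), a 1.42-fold difference (log2FC 0.51, SE 0.031). IL1B (112829751 to 112836903) encodes the agonist that is made as an inactive precursor and cut by caspase-1. It was at 142, 141 and 146 CPM in the libraries labelled siNC and at 398, 392 and 396 CPM in those labelled siFBXL6. The libraries of a group differed by a few CPM, and the 2 groups lay far apart. The means of 143 ± 2.35 and 395 ± 2.84 CPM (SD, n = 3 each) gave a 2.77-fold difference (log2FC 1.47, SE 0.030). IL1B thus differed more than IL1A, its neighbour on the chromosome.

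IL36G (112973203 to 112985665), the IL-36 agonist, was far less abundant. It was at 0.752, 0.939 and 1.01 CPM in the libraries labelled siNC and at 4.32, 4.90 and 4.26 CPM in those labelled siFBXL6. The 2 groups were well separated, although the control values rest on 44, 58 and 58 counts. The fold change was 4.98 (log2FC 2.32, SE 0.15), the largest of the 9 genes, and 24 of all genes tested had a value this high or higher, IL36G included. IL18, on chromosome 11 (112143251 to 112164117), encodes a cytokine that is also cut by caspase-1 and binds its own receptor. It was at 18.7, 16.9 and 19.1 CPM in the libraries labelled siNC and at 21.2, 19.5 and 20.3 CPM in those labelled siFBXL6. The groups nearly touched, with the highest control library just under the lowest of the other group. IL18 had the smallest difference of the 9 genes, 1.12-fold (log2FC 0.16, SE 0.056). IL33, an alarm cytokine gene on chromosome 9 (6215786 to 6257983), had 0, 0 and 2 counts in the siNC-labelled libraries and 4, 4 and 0 in the siFBXL6-labelled ones. These counts are too few to compare the groups, and no fold change is given.

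Both antagonist genes were low in the libraries labelled siNC. IL1RN (113107214 to 113134016), which encodes the IL-1 receptor antagonist, was at 1.59, 1.26 and 1.85 CPM there and at 5.52, 5.13 and 5.44 CPM in the libraries labelled siFBXL6. The spread among the controls was small beside the gap between the groups. The fold change was 3.43 (log2FC 1.78, SE 0.13), larger than those of both IL-1 agonists. IL36RN (113058638 to 113065382), the antagonist of the IL-36 receptor, was at 1.38, 1.38 and 1.08 CPM in the libraries labelled siNC and at 3.72, 3.44 and 3.65 CPM in those labelled siFBXL6. Its groups did not overlap either. Its fold change of 2.81 (log2FC 1.49, SE 0.14) was smaller than that of IL36G.

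The receptor genes covered a wide range of differences. IL1R1 (chromosome 2, 102064544 to 102179874), the signalling receptor, was at 19.0, 20.3 and 18.5 CPM in the libraries labelled siNC and at 24.9, 24.8 and 23.6 CPM in those labelled siFBXL6. The groups were apart by a modest step, 1.27-fold (log2FC 0.34, SE 0.051). IL1RAP (chromosome 3, 190514051 to 190659750), the accessory chain, was at 13.0, 12.1 and 12.2 CPM in the libraries labelled siNC and at 20.5, 21.7 and 19.3 CPM in those labelled siFBXL6. Again no library of either group fell among the other, and the fold change was 1.65 (log2FC 0.72, SE 0.059). IL1R2 (chromosome 2, 101991844 to 102028544), the decoy receptor, was at 0.393, 0.421 and 0.244 CPM in the libraries labelled siNC and at 2.02, 1.52 and 1.31 CPM in those labelled siFBXL6. All libraries labelled siFBXL6 were higher, but they differed among themselves more than for any other of the 9 genes relative to their mean. The control values rest on 23, 26 and 14 counts, and the fold change of 4.55 had the widest error of the 9 genes (log2FC 2.18, SE 0.25). Exons shared with other genes touched 0.155% of the exon bases of IL1R1 and 4.63% of those of IL1RAP, where the other gene had no count, and none of the other members.

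**Figure D1:**
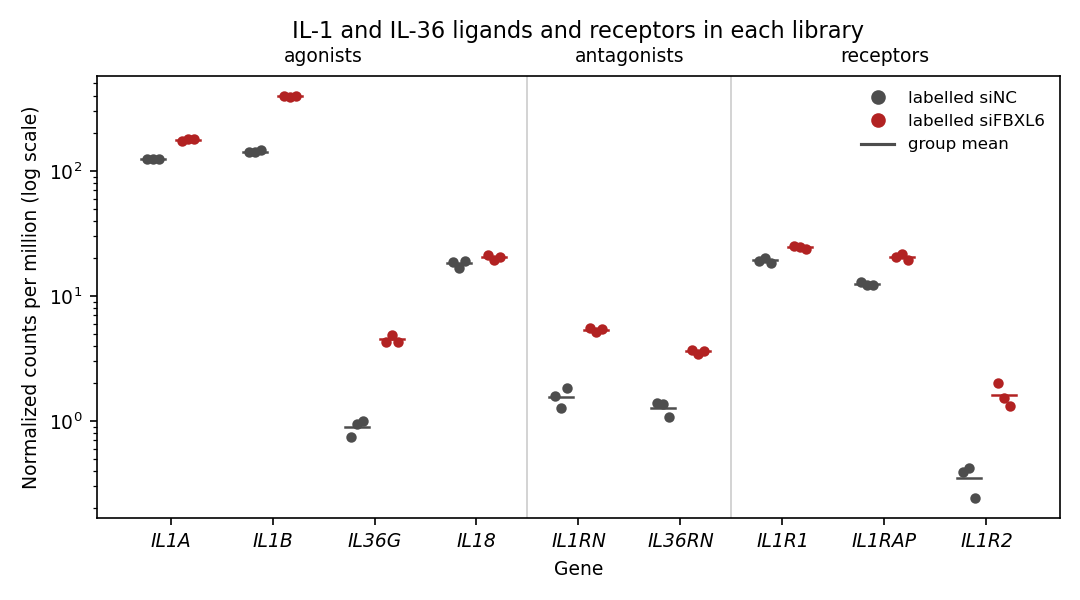
Normalized CPM (log scale) of 9 genes in each library, grey for the libraries labelled siNC and red for those labelled siFBXL6, with bars at the group means (n = 3 each). IL33 is left out because libraries had 0 counts. In each gene the red points lie above the grey points, closest together for IL18 (18.2 against 20.3 CPM) and far apart for IL36G (0.900 against 4.49 CPM).

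To compare levels between genes, counts were divided by exon length and scaled to TPM (transcripts per 1000000). By TPM, IL1A led in the libraries labelled siNC at 170 ± 1.40 (SD, n = 3), followed by IL1B at 133 ± 2.04. In the libraries labelled siFBXL6 the order of this pair turned, with IL1B at 369 ± 0.942 and IL1A at 242 ± 6.66 TPM (SD, n = 3). The turn depends on the division by exon length. By CPM, IL1B was above IL1A in both groups, at 143 against 125 CPM (siNC) and 395 against 178 CPM (siFBXL6) as group means. The TPM ratio of IL1B to IL1A was 0.774, 0.781 and 0.796 in the libraries labelled siNC and 1.580, 1.503 and 1.498 in those labelled siFBXL6, so each library showed the order of its group. IL18 came next in both groups, at 19.99 ± 1.29 and 22.3 ± 0.816 TPM, and then IL1R1, at 7.85 ± 0.359 and 9.97 ± 0.308 TPM (SD, n = 3 each).

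Below IL1R1 the order differed between the groups. By TPM, the libraries labelled siNC had IL1RAP (3.11 ± 0.130), IL36G (1.88 ± 0.273), IL1RN (1.39 ± 0.259), IL36RN (1.12 ± 0.154) and IL1R2 (0.331 ± 0.0897). IL36G and IL1RN overlapped there, as did IL1RN and IL36RN, so their order was not beyond the spread of the libraries. In the libraries labelled siFBXL6, IL36G stood above IL1RAP, at 9.41 ± 0.784 against 5.12 ± 0.316 TPM, and its libraries overlapped those of IL1R1. IL1RN (4.76 ± 0.161 TPM) overlapped IL1RAP, and IL36RN (3.16 ± 0.111 TPM) and IL1R2 (1.52 ± 0.337 TPM) followed without overlap. The 10 genes summed to 340, 334 and 342 TPM in the libraries labelled siNC and to 661, 669 and 670 TPM in those labelled siFBXL6. IL1A and IL1B made up most of this sum in every library, from 89.3% to 91.8%.

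The balance between agonist and antagonist was described by ratios of counts per kilobase of exon within a library. For IL1A and IL1B together over IL1RN, the ratio was 215, 268 and 187 in the libraries labelled siNC and 124, 134 and 128 in those labelled siFBXL6. Agonist RNA exceeded antagonist RNA in all libraries, by less in those labelled siFBXL6, where the ratio was lower by 0.78 on the log2 scale (a log2 difference of -0.78). For IL36G over IL36RN the ratio was 1.30, 1.63 and 2.24 in the libraries labelled siNC and 2.77, 3.40 and 2.79 in those labelled siFBXL6. This arm went the other way, with a log2 difference of 0.83 and no overlap between the groups. For IL1R1 over IL1R2, the signalling over the decoy receptor, the ratio was 21.0, 20.9 and 32.9 in the libraries labelled siNC and 5.35, 7.07 and 7.81 in those labelled siFBXL6. The decoy came closer to the signalling receptor in RNA level, with a log2 difference of -1.87, and stayed below it in every library. The ratios are built from the selected genes and were not tested, and protein was not measured in these libraries.

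Because the members on chromosome 2 moved in the same direction, the sequence before their start sites was examined in the promoter table of RefSeq (GRCh38.p14). It gave 18 windows, from 250 bases before to 50 bases after a start site, for 9 members matched by symbol, without IL18. Stretches of 4 ligand genes are printed 5′ to 3′, for the IL-1 agonists, their antagonist and the member with the largest difference. Each begins 250 bases before the first listed RefSeq start site and stops where an exon of the count table begins. For IL1RN and IL36G this is not the first exon. Their stretches lie inside the spans given above, which begin at 113107214 and 112973203. Capitals mark a motif that was searched.
IL1A, chr2:112784591-112784743, minus strand: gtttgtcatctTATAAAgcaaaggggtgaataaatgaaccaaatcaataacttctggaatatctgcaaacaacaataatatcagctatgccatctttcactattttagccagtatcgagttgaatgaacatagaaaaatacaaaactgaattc
IL1B, chr2:112836904-112837029, minus strand: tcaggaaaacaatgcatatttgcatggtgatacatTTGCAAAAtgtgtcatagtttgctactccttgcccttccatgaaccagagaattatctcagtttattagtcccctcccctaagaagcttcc
IL1RN, chr2:113117721-113117892, plus strand: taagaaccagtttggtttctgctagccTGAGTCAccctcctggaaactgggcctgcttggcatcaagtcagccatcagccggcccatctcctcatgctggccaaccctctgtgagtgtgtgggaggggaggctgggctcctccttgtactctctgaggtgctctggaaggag
IL36G, chr2:112977756-112977885, plus strand: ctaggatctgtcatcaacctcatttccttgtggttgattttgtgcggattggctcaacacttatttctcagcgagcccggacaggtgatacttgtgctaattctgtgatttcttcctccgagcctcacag
The motifs were TATAAA (the TATA box), TGANTCA (the AP-1 consensus), GGANTTTCC (part of the κB consensus) and TTGCNNAA (a C/EBP site), on both strands of the whole windows. TGANTCA was found in 3 of the 18 windows, of IL1A and IL1RN (2 of the 9 members matched), and 7.71% of the 35116 windows in the table held it. The IL1A windows overlap and hold the same TGANTCA sites, so these sites are counted in each window. In IL1A the motif lay 12 bases before and 38 bases after the first listed start site, and in IL1RN it is the stretch in capitals. TATAAA was found in 4 of the 18 windows, of IL1A, IL1RN, IL1R1 and IL1R2 (11.5% of all windows). In IL1RN and IL1R2 a match began 30 bases before a listed start site. In IL1A it began 239 bases before, and in IL1R1 229 and 124 bases before on the opposite strand. TTGCNNAA was found in 2 of the 18, of IL1B and IL1R1 (10.5% of all windows). GGANTTTCC was in no window of the members and in 1.64% of all windows. A match describes letters in a window, and its use in these cells was not tested.

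The other IL-1 family genes were written as a list of 12, and the only gene called higher, IL1RL1, is set aside below. Of the 7 tested, 1 was higher (14.3%, against 20.5% of all genes tested), 3 were lower (42.9% against 19.8%) and 3 did not pass the test in edgeR, with a median log2FC of -0.15 against -0.01 for all genes tested. IL1RL1, the IL-33 receptor, had 6, 6 and 7 counts in the siNC-labelled libraries and 32, 37 and 34 in the siFBXL6-labelled ones (log2FC 2.39). It was rare in both groups and passed the filter on low counts only through the group where it was higher, so it had to differ and its test is not used. It is the only gene behind the count of 1 higher, which is 0 when 10 counts are required in every library. The 5 genes not tested had at most 12 counts in a library. The IL-36 agonist gene IL36B had 0, 0 and 0 counts in the siNC-labelled libraries and 11, 4 and 4 in the siFBXL6-labelled ones. IL37 had 0, 0 and 1 against 6, 4 and 2, and IL1F10 had 0, 0 and 2 against 9, 8 and 1. IL36A had 2, 0 and 0 against 0, 0 and 0, and the IL-18 receptor chain IL18RAP had 8, 12 and 8 against 5, 4 and 8. As for IL33, these counts are too few to compare the groups. IL1RAPL1, a receptor family gene on chromosome X known from neurons, fell from 1.10 ± 0.214 to 0.331 ± 0.0569 CPM (SD, n = 3 each, log2FC -1.73, adjusted p = 2.93e-06 in edgeR). The receptor IL18R1, the most abundant of the list by TPM, was lower by a small step (log2FC -0.22, adjusted p = 0.00255), as was IL18BP, which encodes a soluble inhibitor of IL-18 (log2FC -0.21, adjusted p = 0.0244, both in edgeR). IL18BP shares 15.6% of its exon bases with NUMA1 on the opposite strand, and its call was lost with DESeq2 (adjusted p = 0.0878). It was also lost in edgeR when siNC replicate 2 (adjusted p = 0.0710), siNC replicate 3 (0.0669) or siFBXL6 replicate 1 (0.185) was left out. IL1RL2, the IL-36 receptor itself, was at 1.26 ± 0.215 and 1.56 ± 0.233 CPM (SD, n = 3 each) and its groups overlapped (adjusted p = 0.191 in edgeR). SIGIRR, an inhibitory receptor, and IL1RAPL2 did not pass the test (log2FC values -0.15 and -0.09, adjusted p = 0.459 and 0.658 in edgeR).

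Genes of the proximal signalling pathway went both ways, by small steps. Of 22 genes, all tested, 8 were higher (36.4%, against 20.5% of all genes tested) and 5 lower (22.7% against 19.8%) in edgeR, none of the 13 by 0.5 or more on the log2 scale, and the median log2FC was 0.02. The count of 5 lower fell to 3 with DESeq2 and without siNC replicate 3. Those called ran from PELI2, an IRAK-binding ubiquitin ligase (log2FC -0.38, adjusted p = 1.04e-05), to MAP3K7, the kinase TAK1 (log2FC 0.40, adjusted p = 3.91e-10, both in edgeR and named after their values were seen). IRAK2, the most abundant of them by TPM, was at 192 ± 2.12 and 220 ± 3.56 CPM (SD, n = 3 each, log2FC 0.19, adjusted p = 2.52e-06 in edgeR).

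For genes of cytokine processing and release, 22 of 28 were tested, 10 were higher (45.5%, against 20.5% of all genes tested) and 3 lower (13.6% against 19.8%) in edgeR, and the median log2FC was 0.10. CASP4, the caspase that senses cytosolic lipopolysaccharide, rose from 40.3 ± 2.11 to 96.2 ± 2.63 CPM (SD, n = 3 each, log2FC 1.25, SE 0.037, adjusted p = 6.62e-24 in edgeR). The inflammasome sensor NLRP3 had 61, 38 and 53 counts in the siNC-labelled libraries and 166, 192 and 129 in the siFBXL6-labelled ones (log2FC 1.65, adjusted p = 7.48e-09 in edgeR). The sensors MEFV and NLRP1, also rare, had log2FC values of 0.82 and 0.70 (adjusted p = 0.00795 and 0.00247 in edgeR), and the call of MEFV was lost without siNC replicate 1 (adjusted p = 0.0653). The protease genes CTSS and CAPN2 were higher by 0.62 and 0.41 on the log2 scale (adjusted p = 3e-13 and 1.79e-13 in edgeR), CAPN2 being the most abundant of the list by TPM and a calpain, the protease class that cuts the IL-1α precursor. CARD16, which resembles the start of CASP1 so closely that reads may be split between them, was lower (log2FC -0.59, adjusted p = 2.07e-05 in edgeR). CASP1 itself, named after its value was seen, was at 16.6 ± 0.832 and 17.3 ± 0.635 CPM (SD, n = 3 each, adjusted p = 0.412 in edgeR), with overlapping groups.

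Genes known as targets of IL-1 or IL-36 in epithelium were mostly higher. Of 22 genes, 21 were tested, 18 were higher (85.7%, against 20.5% of all genes tested) and 1 lower (4.76% against 19.8%) in edgeR, and the median log2FC was 0.90 against -0.01 for all genes tested. The list was written with earlier results of these data known, so its direction is no independent evidence. The granulocyte growth factor gene CSF3 had the highest value, at 2.55 ± 0.151 and 14.7 ± 0.679 CPM (SD, n = 3 each, log2FC 2.53, SE 0.084, adjusted p = 1.9e-22 in edgeR). IL23A followed (log2FC 1.88), then CXCL2 (1.70), CSF2 (1.57), CCL20 (1.42) and S100A8 (1.15), with adjusted p-values from 6.51e-26 for CXCL2 to 8.12e-15 for S100A8 in edgeR. CXCL2 is close in sequence to CXCL1 and CXCL3, and reads may be split among them. LCN2, the antibacterial lipocalin, was the most abundant of the list by TPM in the libraries labelled siFBXL6, while S100A9 stood level with it in the others (7307 against 7293 TPM). LCN2 was at 235766, 250433 and 231288 counts in the libraries labelled siNC and 563423, 521863 and 538235 in those labelled siFBXL6 (log2FC 1.15, adjusted p = 2.72e-27 in edgeR). The exceptions, named after their values were seen, were ZC3H12A, which was lower (log2FC -0.18, adjusted p = 0.000902), and NFKBIA and CXCL3, which did not pass the test (adjusted p = 0.303 and 0.813, all in edgeR).

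Regulators of AU-rich cytokine mRNA, 9 genes that were all tested, had 2 higher (22.2%, against 20.5% of all genes tested) and 3 lower (33.3% against 19.8%) in edgeR, none by 0.5 or more on the log2 scale, with a median of -0.06. The count of 2 higher fell to 1 with library size alone and without siNC replicate 3, siFBXL6 replicate 2 or siFBXL6 replicate 3. HNRNPD, the most abundant by TPM, was lower by a small step (log2FC -0.33, adjusted p = 1.67e-12 in edgeR).

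On chromosome 2 the ligand genes from IL1A to IL1RN lie together (112773915 to 113134016), and the receptor genes from IL1R2 to IL18RAP form another cluster (101991844 to 102452565). Position was not used to select the members, so the other genes within 500 kb of each cluster were tested. Around the ligand cluster, 18 genes were tested, 4 were higher (22.2%) and 3 lower (16.7%) in edgeR, shares near the 20.5% and 19.8% of all genes tested, and their median log2FC was -0.09. PAX8, a transcription factor gene 82.0 kb beyond IL1RN, and its antisense gene PAX8-AS1 had log2FC values of 1.02 and 0.86 (adjusted p = 4.68e-05 and 7.82e-05 in edgeR). They share exon bases, so their counts may not be independent. NT5DC4, 31.0 kb from IL1A, had a log2FC of 0.37 (adjusted p = 1.22e-05 in edgeR) and shares 11.2% of its exon bases with CKAP2L on the opposite strand.

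Around the receptor cluster 9 genes were tested, 4 were higher (44.4%, against 20.5% of all genes tested) and 1 lower (11.1% against 19.8%) in edgeR, with a median log2FC of 0.36. Of the 4 higher, IL1RL1 passed the filter only through the libraries labelled siFBXL6, and 3 remain when 10 counts are required in every library. These include LINC01127, a noncoding gene 4.68 kb from IL1R2. It had 32, 26 and 14 counts in the siNC-labelled libraries and 137, 82 and 84 in the siFBXL6-labelled ones (log2FC 2.04, SE 0.26, adjusted p = 7.41e-08 in edgeR). As for IL1R2, its lowest control was siNC replicate 3 and its highest library siFBXL6 replicate 1. SLC9A2, a sodium and proton exchanger gene, had a log2FC of 0.72 (adjusted p = 5.73e-07 in edgeR).

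**Figure D2:**
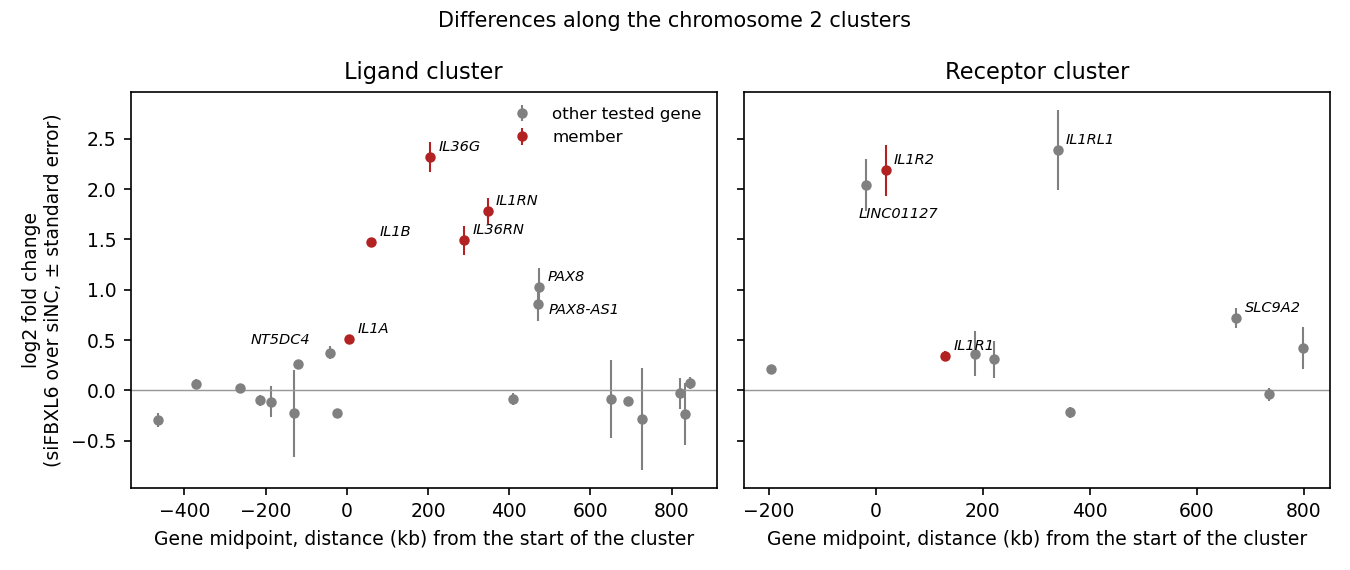
Log2 fold change (libraries labelled siFBXL6 over siNC, with its SE) of each tested gene against the distance of its midpoint from the start of the ligand cluster or the receptor cluster, members in red and other genes in grey. No other tested gene lies between IL1A (0.51) and IL1RN (1.78), the genes beside them run from -0.29 to 1.02, and LINC01127 (2.04) lies beside IL1R2 (2.18).

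Genes with a pattern like that of IL1B or IL36G were sought outside the family by Pearson's correlation of log2 CPM over the 6 libraries. For IL1B these were DOCK9, SDC4 and SERPINB10, with r of 0.9998 each, and their log2FC values were 0.43, 1.56 and 2.07. For IL36G they were BIVM, AC003092.1 and MPZL3, with r of 0.9997, 0.9997 and 0.9995 and log2FC values of 0.22, 2.25 and 0.79. Since the libraries form 2 groups, a high r was common: 1934 of the 16180 genes compared reached an r above 0.95 with IL1B and 1783 with IL36G.

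Markers of cell types were read in the same libraries. Of 15 urothelial and epithelial genes, KRT7 was the most abundant by CPM (1038 and 983 CPM as group means), while UPK1A had no count and UPK1B and UPK3A had means under 0.1 CPM, so the uroplakins of the mature urothelium were at or near 0 except UPK2. The epithelial genes summed to 4085, 3956 and 4069 CPM in the libraries labelled siNC and to 3631, 3620 and 3635 CPM in those labelled siFBXL6. Of the 12 epithelial genes tested, 7 were lower in edgeR, against 19.8% of all genes tested. Among them were GATA3, KRT5 and KRT8 (log2FC -0.53, -0.48 and -0.29). The 2 higher, against 20.5% of all genes tested, were CDH1 and TP63 (log2FC 0.16 and 0.18). The mesenchymal genes VIM and CDH2 summed to 155, 151 and 153 CPM against 117, 118 and 116 CPM. They moved in opposite directions, VIM from 15.6 to 25.4 CPM and CDH2, the more abundant, from 138 to 91.7 CPM as group means (log2FC 0.70 and -0.59, adjusted p = 2.57e-13 and 3.8e-17 in edgeR). The epithelial gene CDH1 stood above VIM in both groups, at 118 and 132 CPM as group means. Whether these levels are those of the T24 line named by the labels was not tested.

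Since myeloid cells are a known source of IL-1, a list of 10 monocyte and macrophage genes was read beside the members. It summed to 10.6, 10.8 and 10.7 CPM in the libraries labelled siNC and to 24.1, 22.8 and 23.6 CPM in those labelled siFBXL6. CD68 made most of the sum (6.70 and 18.8 CPM as group means), and another gene on the same strand overlaps 81.7% of its exon bases. The general leukocyte gene PTPRC was at 0.445, 0.696 and 0.383 CPM against 0.430, 0.331 and 0.232 CPM, and ITGAM had a mean under 0.1 CPM. The monocyte gene CD14 was at 0.548 and 0.574 CPM as group means, with overlapping groups. Of the 9 genes tested, 2 were higher in edgeR, CD68 and CSF1R, a share near the 20.5% of all genes tested. None was lower, against 19.8% of all genes tested. CSF1R rose from 1.32 to 2.45 CPM as group means without overlap (log2FC 0.90, adjusted p = 3.26e-05 in edgeR). The part of these genes in the members' values was not tested. The 5 genes of T and B cells all had means under 0.1 CPM over the 6 libraries. MS4A1 was the most abundant, at 0.0285 and 0.116 CPM as group means, and the list summed to at most 0.332 CPM in a library. The 4 endothelial genes summed to 2.84, 2.53 and 2.91 CPM against 3.87, 3.25 and 4.07 CPM. KDR led in the libraries labelled siNC (1.04 CPM) and PECAM1 in those labelled siFBXL6 (1.39 CPM). Of this list, all tested, only PECAM1 passed the test in edgeR (log2FC 1.28, adjusted p = 4.4e-05). This 1 of 4 is near the 20.5% of all genes tested that were higher. The 5 fibroblast genes, led by COL1A1, summed to 38.1, 39.0 and 37.3 CPM against 34.9, 34.2 and 33.1 CPM. Of these, all tested, COL1A1 alone passed the test in edgeR, lower by a small step (log2FC -0.15, adjusted p = 0.00427). This 1 of 5 is near the 19.8% of all genes tested that were lower.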

How the data were processed

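The authors aligned the reads to GRCh38, counted them per gene with featureCounts (Subread 1.5.1) and deposited raw counts for 6 libraries. For trimming and alignment the paper names Trimmomatic 0.36 and HISAT2, and the submitters' processing notes name fastp 0.23.0 and STAR. The annotation release, the strand setting and the treatment of reads on several genes are not given in the sources used here. Libraries were made with a stranded kit.

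Counts were filtered with edgeR's filterByExpr (21298 of 56303 genes kept), scaled by TMM and tested with the quasi-likelihood method of edgeR 4.0.16 (limma 3.58.1, R 4.3.3), with condition as the only term and Benjamini-Hochberg adjustment over all genes tested. Called means an adjusted p under 0.05. CPM values use the TMM factors, and correlations used log2(CPM + 0.5) of genes averaging 1 CPM or more. TPM values were computed from the deposited counts and exon lengths. The labels do not state separate cultures, so p-values measure only the spread between these samples, which may be technical. Libraries of a group differed by more than the sampling noise of independent counts (chi-square per degree of freedom 2.85 to 6.24). Some rare genes had only even counts, such as LUM (20, 12 and 12 in siNC, 8, 12 and 8 in siFBXL6). Whether both ends of a fragment were counted is not given, so counts may not be independent.

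The members and lists were chosen with earlier results of these data known. Named were all members, FBXL6, GAPDH and ACTB, every tested gene of the other IL-1 family, from each other list up to 6 called genes with a log2FC of 0.5 or more in size and its most abundant gene, the 3 largest changes around each cluster, and the 3 genes most correlated with IL1B and with IL36G. All 93 list genes were found, 1 by a synonym. The alternatives were DESeq2 1.42.0, other scalings and filters, the replicate block, other windows and each library left out. The steps were tested on simulated data, where all 200 changed genes were recovered among 209 calls. Genes with low counts and small differences were not among those changed, so the simulation does not cover them.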

Additional observations from a re-analysis of the deposited data

How the results depend on the processing

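The log2 fold changes of the 9 members kept their direction under all 12 alternatives, and 107 of 108 values moved by less than the spread between libraries (1 SD). The exception was IL1B with library size alone, at 1.45. Scaling moved the median of all genes by little, to -0.03 with library size alone. The 3 ratios kept their direction in 21 of 21 values. Of 371 values for 31 other named genes, 366 kept their side of the threshold and 5 lost it, 4 of IL18BP and 1 of MEFV. Of 224 counts of called genes, 212 stayed within 1.5 times. Of the others, the other IL-1 family had 2 genes higher with no filter and 0 with 10 counts required in every library, where IL1RL1 is no longer tested. AU-rich regulators had 1 higher with library size alone, and from 1 to 2 with each library left out (1 without siNC replicate 3, siFBXL6 replicate 2 or siFBXL6 replicate 3). The signalling list had 3 lower with DESeq2, and from 3 to 5 with each library left out (3 without siNC replicate 3). The causes of these shifts were not tested. Windows of another size hold other genes by construction: at 250 kb, 2 were higher around the receptor cluster and 1 lower around the ligand cluster, and at 1000 kb, 9 were higher and 2 lower around the receptor cluster. With the replicate block, 4298 genes were higher and 4110 lower, against 4360 and 4209 without it. Same-numbered libraries did not deviate together (correlations -0.046, 0.0116 and -0.00684), so the numbers were not taken to pair the samples. IL33 had at most 4 counts in a library, and the control levels of IL1R2 also rest on few counts.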
